A study of Mus musculus with 6 samples.

Results

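The genes described here build the ribosome in the nucleolus: subunits and factors of RNA polymerase I and the proteins that modify, cut and assemble ribosomal RNA. They were chosen by symbol from a deposited table of 24956 genes, by a rule that uses no measured value but was written with earlier results of these data known: symbols that start with Nop, Utp, Rrp or Nol and a digit or with Polr1, Imp3 and Imp4, and the named genes Fbl, Ncl, Npm1, Dkc1, Gar1, Nhp2, Nolc1, Rrn3, Ubtf, Wdr12, Bop1, Pes1 and Ppan. The rule found 56 genes. Their expression was measured by RNA-seq in organoids, epithelial cultures grown from the intestine of Apc Min mice. These animals carry a truncating mutation of Apc, the gene whose product limits β-catenin and Wnt signalling, so control and treated cultures share the genotype. There were 3 libraries of control cultures (replicates 1 to 3) and 3 of cultures treated with DM-aKG (replicates 1 to 3), a dimethyl ester that carries α-ketoglutarate into cells. All were grown in organoid medium, and the labels call the samples primary cells. The protocol field of every sample, controls included, names the DM-aKG treatment, so the groups were taken from the sample titles and source names. The dose, the duration, the control treatment and whether the replicates came from separate animals were not given in the sources used here, so p-values measure the spread between these cultures.

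RNA polymerase I transcribes a long precursor of ribosomal RNA. Guide RNAs in box C/D and box H/ACA particles (snoRNPs) direct its methylation and pseudouridylation, a large complex called the small subunit processome folds and cuts the part that becomes the small subunit, and further factors build the large subunit. The pathway consumes much of the energy of growing cells, and in the intestine it is most active in the dividing cells of the crypt, where MYC downstream of Wnt is a known activator.

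Depth was estimated at 32.7 M to 34.3 M reads per library. On that estimate the tested member with the fewest reads, Utp23, rested on about 280 reads in its lowest library, a counting error of 5.98%. All 8 fixed epithelial markers were expressed, with summed levels of 2850 to 2900 RPKM (read counts divided by transcript length and library size) in the controls and 3670 to 4580 RPKM in the DM-aKG libraries. These markers did not move together. Krt8, Krt18, Krt19, Cdh1 and Vil1 were called higher in DM-aKG, Epcam and Cdx2 lower, and Cldn7 was not called. Epcam was at 416.6 to 425.5 RPKM in the controls and at 327.3 to 341.5 RPKM in DM-aKG. Markers of other cells were near 0. The 7 fibroblast and muscle markers summed to 0.04 to 0.07 RPKM in the controls and to 0.07 to 0.12 RPKM in DM-aKG. The 6 immune markers summed to 1.01 to 1.15 RPKM in the controls and to 1.26 to 1.42 RPKM in DM-aKG. For the 5 endothelial and glial markers the sums were 0.57 to 0.75 RPKM and 1.24 to 1.39 RPKM. Col3a1, Cdh5 and Kdr were at 0 in every library. Among the treated libraries, replicate 1 stood nearer to the controls for several genes. The intestinal transcription factor gene Cdx2, for example, was at 50.8 RPKM there, at 34.9 and 36.0 RPKM in replicates 2 and 3, and at 68.4 to 72.4 RPKM in the controls. The part that these shifts of markers and the difference between treated libraries play in the results was not tested.

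The members changed in both directions and by small amounts. The mean level exceeded the filter of 1 RPKM for 55 of the 56 genes, all but Nol4. Of these 55, 15 were higher and 11 lower in DM-aKG (limma on log2(RPKM + 0.5), adjusted p under 0.05), and 29 did not pass. Together 47.3% of the members were called, against 55.6% of all 10852 genes tested, of which 30.9% were higher and 24.7% lower. The share of called members was thus not above that of genes in general. No member reached a fold change of 1.5, a size that 12.2% of all tested genes reached. The median size of the log2 change, without regard to sign, was 0.15 over the members and 0.20 over all tested genes, and the signed medians were 0.00 and 0.02. In 17 members every DM-aKG library was above every control, in 13 every one was below, and in 25 the groups overlapped. Groups did not overlap in 64.2% of all tested genes. The split followed the scaling, in the members as in the whole table. With quantile normalization 12 members were higher and 15 lower, and all tested genes went from 3354 higher and 2679 lower to 2861 and 3190. With an equal RPKM sum 17 members were higher and 9 lower, and 3812 and 2256 of all genes. With both control replicate 2 and DM-aKG replicate 1 dropped, 16 members were higher and 17 lower. Of all genes 3721 were then higher and 3270 lower, so 64.5% were called, against 60.0% of the members.

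**Figure D1:**
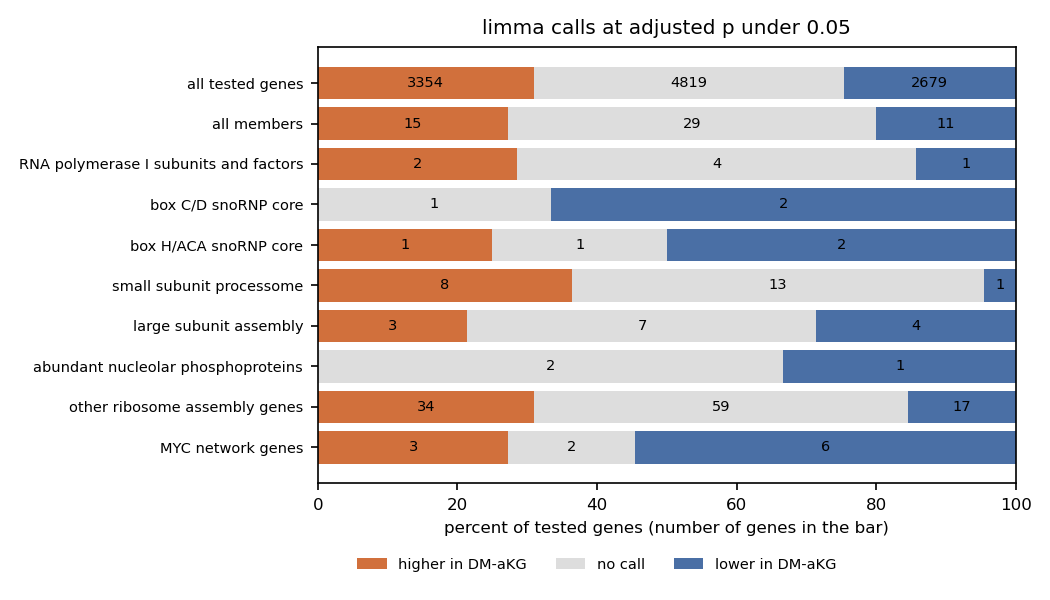
Share of tested genes (horizontal axis, percent) that limma called higher or lower in DM-aKG or did not call, for all tested genes, the members, their role groups and 2 lists of related genes; the numbers in the bars count genes. The small subunit processome holds 8 higher genes and 1 lower gene, the box C/D core 2 lower genes and no higher one.

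Promoter sequence was looked at for the members that moved. RefSeq promoters (GRCm38.p6, 250 bases before to 50 after each start) matched 45 of the 56 members. The letters CACGTG, the E-box that MYC and related factors bind and its own reverse complement, stood in the promoters of 10 of the 45 genes (22.2%) and in 12.5% of the 8597 tested genes with a promoter. The letters CCGGAA on either strand (TTCCGG on the other), the core of sites for ETS factors, stood in 22 of 45 (48.9%) and in 34% of the tested genes. An E-box and the ETS letters cannot overlap, but the ETS letters of both strands can, as in TTCCGGAA before Gar1. An E-box was present in 4 of the 11 higher, 2 of the 8 lower and 4 of the 26 uncalled members, and the ETS letters in 7, 3 and 12 of them. A match describes letters only, and shows no binding. To compare called members that moved in opposite directions, 150 bases before the start of 5 of them are given, 5′ to 3′ on the strand of the gene, with both motifs in capitals where they lie wholly in these bases. Gar1 at chr3:129831397-129831546 (minus strand) fell and Nhp2 at chr11:51619623-51619772 (plus strand) rose, although their proteins sit in the same particle and both promoters hold the ETS letters. Rrn3 at chr16:13780549-13780698 (plus strand) and Utp18 at chr11:93885767-93885916 (minus strand) rose and Imp4 at chr1:34439679-34439828 (plus strand) fell, and all 3 hold an E-box.
Gar1: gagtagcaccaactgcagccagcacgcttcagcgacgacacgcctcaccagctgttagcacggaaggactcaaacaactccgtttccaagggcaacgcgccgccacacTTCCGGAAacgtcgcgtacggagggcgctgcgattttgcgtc
Nhp2: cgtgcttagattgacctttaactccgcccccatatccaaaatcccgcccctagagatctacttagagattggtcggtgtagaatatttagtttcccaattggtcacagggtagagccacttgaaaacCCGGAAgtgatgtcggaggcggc
Rrn3: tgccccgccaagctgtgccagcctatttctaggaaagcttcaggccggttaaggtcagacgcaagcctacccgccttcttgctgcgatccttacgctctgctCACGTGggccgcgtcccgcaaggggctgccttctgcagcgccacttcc
Utp18: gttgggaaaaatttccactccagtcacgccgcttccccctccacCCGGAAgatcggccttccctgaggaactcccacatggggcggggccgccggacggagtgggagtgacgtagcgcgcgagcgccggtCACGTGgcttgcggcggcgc
Imp4: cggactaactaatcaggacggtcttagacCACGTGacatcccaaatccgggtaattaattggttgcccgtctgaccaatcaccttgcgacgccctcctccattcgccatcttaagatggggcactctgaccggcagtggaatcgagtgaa
These 5 promoters were picked by direction and motif, so they are single examples and test nothing. In the window from 100 bases before the start, an E-box stood in 4 of the 11 higher, 1 of the 8 lower and 3 of the 26 uncalled members. The ETS letters stood there in 7, 3 and 10 of them. The E-box of Imp4, at -121, lies outside that window.

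Of 7 RNA polymerase I genes, 2 rose and 1 fell: the largest subunit and an initiation factor rose while the DNA-binding factor fell. The share called was 42.9%, against 55.6% of all tested genes. Rrn3, which links the polymerase to the promoter-bound factors, stood at 17.96, 17.3 and 17.1 RPKM in control replicates 1 to 3 and at 21.4, 23.4 and 23.0 RPKM in DM-aKG. All treated libraries exceeded all controls, and the means were 17.4 ± 0.450 and 22.6 ± 1.08 RPKM (SD over n = 3 here and in later means), a change of 0.36 ± 0.05 on the log2 scale (± is the SE; adjusted p from limma = 6.21e-04). Polr1a, the largest catalytic subunit, was at 11.1, 12.1 and 10.8 RPKM in the controls and at 13.4, 13.6 and 13.1 RPKM in DM-aKG, and it rose by 0.23 ± 0.05 on the log2 scale (adjusted p from limma = 0.00740). Ubtf, the HMG-box protein that binds ribosomal DNA and keeps it open, was at 20.0, 19.1 and 20.0 RPKM in the controls and at 17.6, 14.8 and 14.4 RPKM in DM-aKG. It fell by 0.33 ± 0.07 on the log2 scale with no overlap (adjusted p from limma = 0.00691), and the lowest treated values came from replicates 2 and 3. The second-largest subunit gene Polr1b split the treated libraries in the same way, at 13.7 RPKM in replicate 1 and 10.96 and 11.2 RPKM in replicates 2 and 3, against 12.8 to 13.9 RPKM in the controls. Polr1b did not pass the test (adjusted p from limma = 0.151), but without DM-aKG replicate 1 it was lower, with a log2 fold change of -0.26 (adjusted p from limma = 0.00269). Leaving out that library raised the called share of all tested genes from 55.6% to 63.3%. Polr1c and Polr1d, whose products also serve RNA polymerase III, had overlapping groups and log2 fold changes of 0.02 ± 0.06 and 0.00 ± 0.04. Polr1e, at 3.74 ± 0.140 RPKM without and 3.98 ± 0.235 RPKM with DM-aKG, did not pass either. Rrn3 lies on chromosome 16, 13780708 to 13814839 (plus strand), and Ubtf on chromosome 11, 102304560 to 102319742 (minus strand), of GRCm38.

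Of the 3 box C/D core genes, 2 were called lower and none higher (66.7% called, against 55.6% of all tested genes). Fbl, which encodes fibrillarin, the methyltransferase of these particles, was at 89.8, 92.2 and 89.0 RPKM in the controls and at 72.2, 67.7 and 64.3 RPKM in DM-aKG. The fall was the largest of any member, and Fbl fell by 0.41 ± 0.05 in log2 terms (adjusted p from limma = 4.15e-04), with no overlap. Nop58, a scaffold protein of the particle, fell from 59.2 ± 0.544 to 53.1 ± 2.24 RPKM (adjusted p from limma = 0.0156), and none of its treated values reached the lowest control. Nop58 lost its call when control replicate 1 was dropped (adjusted p from limma = 0.0522) or control replicate 3 (0.0521), and likewise for DM-aKG replicate 2 (0.0543) or 3 (0.0584). Its partner Nop56 was at 71.2, 68.0 and 70.6 RPKM in the controls and at 71.9, 65.0 and 65.5 RPKM in DM-aKG. The groups overlapped through DM-aKG replicate 1, and Nop56 did not pass (adjusted p from limma = 0.397). Without that library Nop56 was lower (log2 fold change -0.10, adjusted p from limma = 0.0421), in a fit that called 63.3% of all tested genes. Fbl lies on chromosome 7, 28169710 to 28179269 (plus strand).

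In the box H/ACA particles, 2 of the 4 core genes fell and 1 rose (75.0% called, against 55.6% of all tested genes). Gar1 was at 17.0, 17.4 and 15.8 RPKM in the controls and at 13.6, 12.8 and 11.98 RPKM in DM-aKG, falling by 0.38 ± 0.06 on the log2 scale (adjusted p from limma = 0.00141). Dkc1, the pseudouridine synthase itself, which also binds telomerase RNA, fell from 23.8 ± 0.413 to 19.7 ± 0.885 RPKM (adjusted p from limma = 0.00192). Both had groups that did not overlap. Nhp2 went the other way, from 52.3, 54.8 and 52.7 RPKM in the controls to 57.9, 61.2 and 63.7 RPKM in DM-aKG, and it rose by 0.19 ± 0.05 on the log2 scale (adjusted p from limma = 0.00979). With quantile normalization the call of Nhp2 was lost (log2 fold change 0.11, adjusted p from limma = 0.0731). Nop10, the smallest of the 4 proteins, was at 52.3 ± 2.06 RPKM without and 49.8 ± 1.82 RPKM with DM-aKG, with overlapping groups. The ratio of Nhp2 to Gar1, which a single scaling factor per library cannot move, was 3.07, 3.14 and 3.33 in the controls and 4.26, 4.77 and 5.32 in DM-aKG. The pairs for which ratios are given were picked because their members moved in opposite directions. The ratios are therefore a description, and no p-value is drawn from them.

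**Figure D2:**
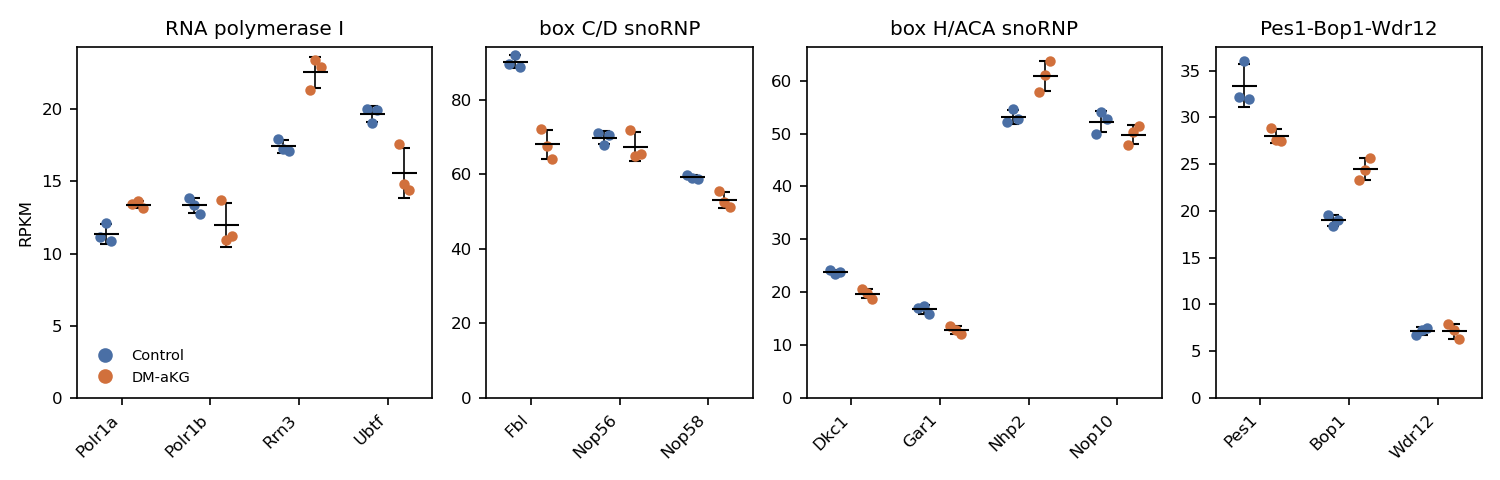
RPKM (vertical axis, from 0) of members of 4 complexes in each library, with points for single libraries (blue control, orange DM-aKG), black dashes for means and bars for the SD of 3 libraries. Members of one complex move apart: Nhp2 is higher in DM-aKG while Dkc1 and Gar1 are lower, and Bop1 is higher while Pes1 is lower.

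Small subunit processome genes held more higher than lower calls. Among 22 genes, 8 passed as higher and 1 as lower, with a median log2 fold change of 0.06. Of all tested genes 30.9% were higher, 24.7% lower and 55.6% called, against 40.9% called in this group. The split moved with the scaling: 8 higher and 4 lower with median centring, 7 and 4 with quantile normalization, and 10 and 1 with libraries scaled to an equal RPKM sum. Dropping those same libraries, 1 of each group, gave 9 higher and 3 lower. Utp20, a very large helical repeat protein of the complex, changed most of all members. It was at 5.37, 5.58 and 5.46 RPKM in the controls and at 8.05, 8.03 and 8.01 RPKM in DM-aKG, a rise of 0.51 ± 0.05 on the log2 scale or 46.8% in the mean (adjusted p from limma = 9.36e-05). The treated libraries agreed closely, with an SD of 0.02 RPKM. Nol10 rose from 6.04 ± 0.0265 to 7.71 ± 0.292 RPKM (adjusted p from limma = 9.94e-04). Utp18, a WD-repeat protein, was at 15.8, 15.8 and 16.7 RPKM in the controls and at 19.5, 19.4 and 19.3 RPKM in DM-aKG (adjusted p from limma = 0.00138). The RNA-binding protein gene Nop9 rose from 11.2 ± 0.105 to 13.5 ± 0.25 RPKM (adjusted p from limma = 0.00139). Rrp36, Nol6, Utp6 and Utp4 also rose without overlap, by 0.24, 0.21, 0.21 and 0.17 on the log2 scale. Among these, the call for Nol6 was lost without DM-aKG replicate 3 (adjusted p from limma = 0.0550) and that for Utp4 with quantile normalization (adjusted p from limma = 0.0587).

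The processome gene that fell was Imp4, a U3 snoRNP protein. It was at 20.5, 20.8 and 20.9 RPKM in the controls and at 17.9, 17.5 and 16.9 RPKM in DM-aKG, falling by 0.24 ± 0.04 on the log2 scale (adjusted p from limma = 0.00172). Its partner Imp3 was at 36.0, 34.1 and 33.5 RPKM in the controls and at 33.0, 28.9 and 31.6 RPKM in DM-aKG. These groups did not overlap, yet Imp3 stayed just short of the threshold (adjusted p from limma = 0.0576), which it passed in 6 of 17 alternatives. Rrp12, Nol11 and Utp15 likewise had groups that did not overlap and adjusted p-values of 0.0534, 0.0842 and 0.0802 (limma), the first pair with higher and Utp15 with lower values in DM-aKG. The ratio of Utp20 to Imp4 was 0.262, 0.269 and 0.262 in the controls and 0.450, 0.459 and 0.474 in DM-aKG. The other 9 processome members (Utp3, Utp11, Utp14a, Utp14b, Utp23, Nol7, Nop14, Rrp7a and Rrp9) had overlapping groups. Imp3, Rrp7a and Utp23 each match a transcript of 1 other gene over at least 200 bases at 95% identity or more. Their levels are therefore uncertain. Utp14b, a copy of Utp14a within the Acsl3 locus, stood at 4.70 ± 0.472 RPKM without and 4.99 ± 0.597 RPKM with DM-aKG. Utp20 lies on chromosome 10, 88746607 to 88826804 (minus strand), and its longest coding transcript has 62 exons. The exons of Nop9 overlap those of Cideb on the opposite strand over 29.9% of their length, and without a stated strand the reads of both cannot be told apart; Cideb itself was lower, at 43.7 ± 3.47 RPKM without and 35.6 ± 0.779 RPKM with DM-aKG.

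**Figure D3:**
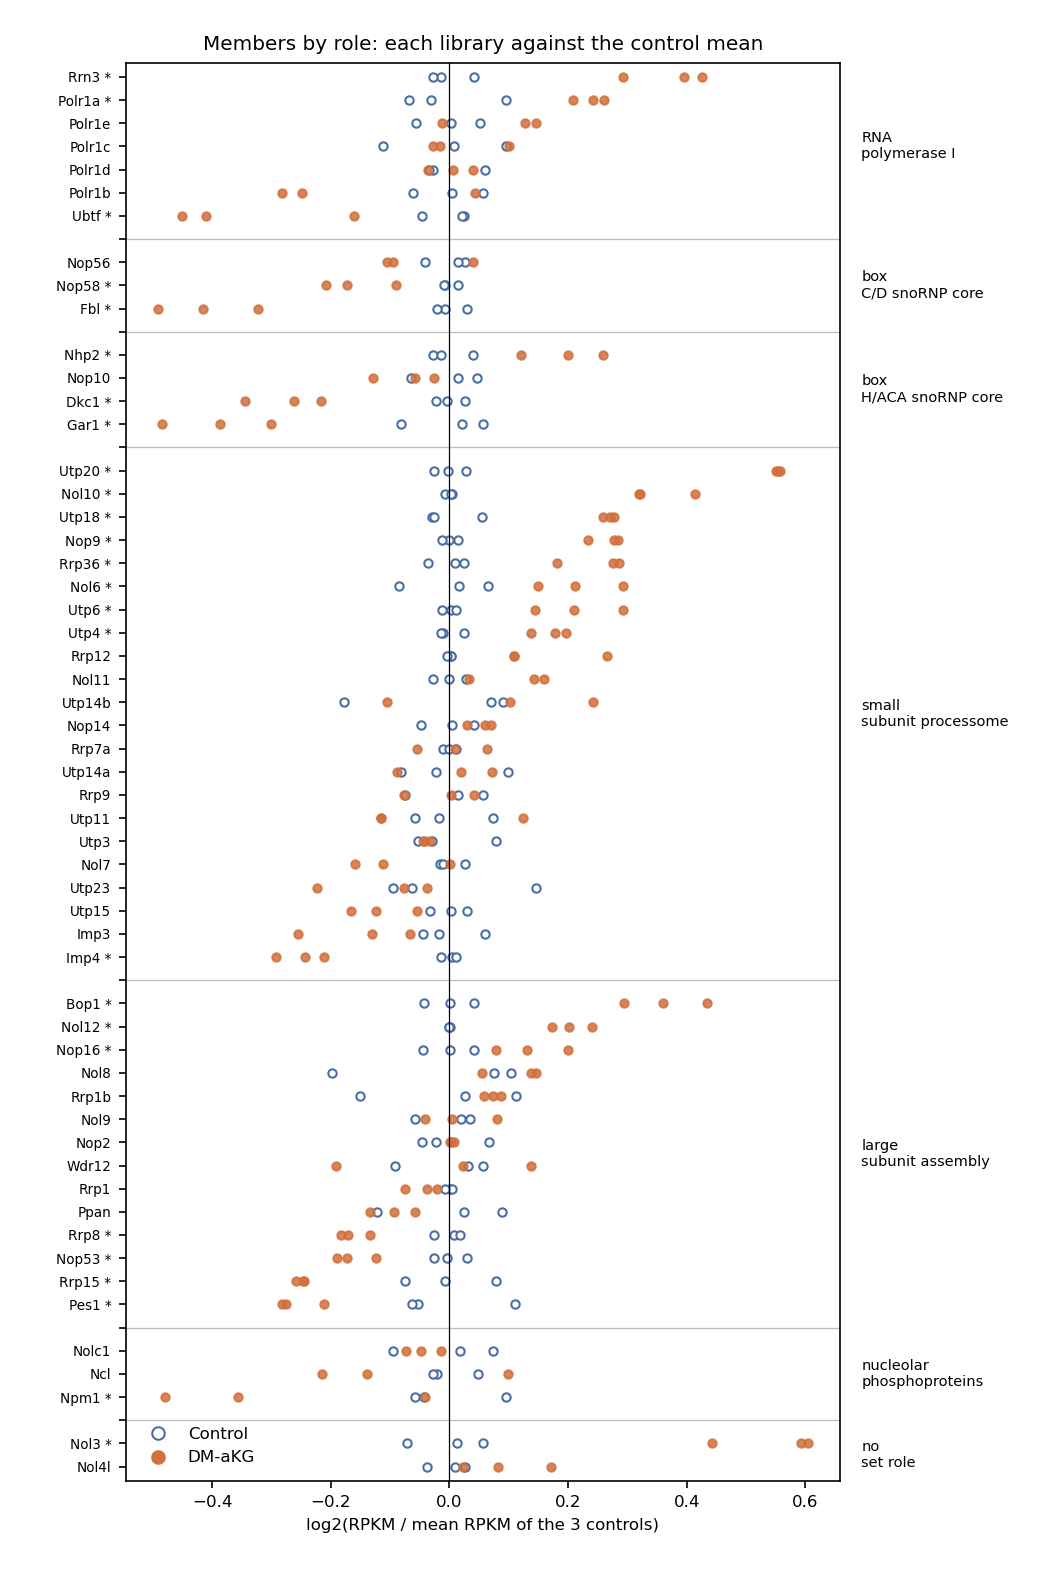
Each library's RPKM relative to the mean of the 3 controls (horizontal axis, log2) for the 55 tested members, ordered by fold change within role groups; open blue points are controls, orange points DM-aKG, and an asterisk marks genes called by limma. The treated points of Utp20 nearly coincide, while those of Npm1 and Ubtf spread, with 1 of the 3 nearer to the controls.

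Large subunit factors split, with 3 of 14 higher, 4 lower and 7 not past the threshold. Among all tested genes 30.9% were higher, 24.7% lower and 55.6% called. The share called among these 14 factors was below that of all tested genes. Their split ran through the trimer of Pes1, Bop1 and Wdr12, which is needed for the processing of large subunit RNA. Bop1 was at 19.5, 18.4 and 19.0 RPKM in the controls and at 23.3, 24.4 and 25.6 RPKM in DM-aKG, a rise of 0.36 ± 0.05 on the log2 scale (adjusted p from limma = 7.16e-04). Pes1 was at 32.2, 36.0 and 32.0 RPKM in the controls and at 28.8, 27.6 and 27.5 RPKM in DM-aKG, falling by 0.25 ± 0.06 on the log2 scale (adjusted p from limma = 0.00623). Wdr12 was at 7.13 ± 0.389 RPKM without and 7.12 ± 0.808 RPKM with DM-aKG (adjusted p from limma = 0.946). Neither Bop1 nor Pes1 had overlapping groups, and the ratio of Bop1 to Pes1 went from 0.607, 0.511 and 0.594 in the controls to 0.807, 0.883 and 0.933 in DM-aKG. Wdr12 shares stretches of at least 200 bases at 95% identity or more with transcripts of 6 other genes and Pes1 with those of 2, so both levels are uncertain. Bop1 lies on chromosome 15, 76452989 to 76477277 (minus strand), and Pes1 on chromosome 11, 3963975 to 3980004 (plus strand).

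Among the other large subunit factors, Rrp15 fell from 15.1 ± 0.808 to 12.7 ± 0.0643 RPKM (adjusted p from limma = 0.00433). Nop53, the most abundant of this group, fell from 106 ± 2.04 to 94.7 ± 2.24 RPKM (adjusted p from limma = 0.00932). The methyltransferase gene Rrp8 fell by 0.15 ± 0.04 on the log2 scale (adjusted p from limma = 0.0185). Its call was lost with libraries scaled to an equal RPKM sum (adjusted p from limma = 0.0618), without control replicate 1 (0.0547) or 3 (0.0731) and without DM-aKG replicate 2 (0.0642) or 3 (0.0577). Nol12, an RNA-binding protein gene, held 7.19, 7.20 and 7.19 RPKM in the controls and 8.11, 8.27 and 8.50 RPKM in DM-aKG, and it rose by 0.19 ± 0.04 on the log2 scale (adjusted p from limma = 0.00751). Nop16 rose from 16.4 ± 0.485 to 18.01 ± 0.758 RPKM (adjusted p from limma = 0.0441), a call that 10 of 17 alternatives did not keep (adjusted p of Nop16 up to 0.294). Nop2, Rrp1, Rrp1b, Ppan, Nol8 and Nol9 did not pass. Of these, the rRNA methyltransferase gene Nop2 was at 27.6 ± 1.15 RPKM without and 27.7 ± 0.0764 RPKM with DM-aKG, and Rrp1, at 65.0 ± 0.272 and 63.1 ± 1.21 RPKM, was lower in every treated library.

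Of the 3 abundant nucleolar phosphoprotein genes, 1 was called lower (33.3%, against 55.6% of all tested genes called). In Npm1 and Ncl the treated libraries differed among themselves. Npm1, which encodes the nucleolar chaperone nucleophosmin, was the most abundant member. It was at 490.1, 539.6 and 485.3 RPKM in the controls and at 490.7, 394.5 and 362.3 RPKM in DM-aKG. Replicate 1 of DM-aKG lay among the controls and the other two well below, so the groups overlapped. Npm1 fell by 0.29 ± 0.11 on the log2 scale and passed the threshold barely (adjusted p from limma = 0.04998). The call of Npm1 was lost in 11 of 17 alternatives, among them a pseudocount of 0.1 (adjusted p from limma = 0.0502), no filter on low values (0.108), quantile normalization (0.264) and an equal RPKM sum (0.0709). Dropping a control ended it too, for replicate 1 (adjusted p from limma = 0.0902), 2 (0.146) or 3 (0.0885), as did dropping DM-aKG replicate 2 (0.141) or 3 (0.146), and with the replicate number as a block the adjusted p was 0.0522. Nucleolin, the product of Ncl, binds ribosomal RNA precursors. Ncl showed the same order, with 96.1, 100.8 and 95.7 RPKM in the controls and 104.4, 88.5 and 84.1 RPKM in DM-aKG, and it did not pass (adjusted p from limma = 0.385). Without DM-aKG replicate 1, Ncl was lower with a log2 fold change of -0.18 (adjusted p from limma = 0.00704). That fit called 63.3% of all tested genes. Nolc1, a protein that binds snoRNPs in the nucleolus, was at 28.6 ± 1.70 RPKM without and 27.7 ± 0.577 RPKM with DM-aKG. Npm1 lies on chromosome 11, 33152287 to 33163206 (minus strand); 4 other genes have transcripts that match it over at least 200 bases at 95% identity or more, so its level is uncertain, as are those of Fbl (2 such genes) and Nop56 (4).

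The rule also took in symbols that carry the name of the nucleolus without a known part in ribosome assembly. Nol3, which encodes an apoptosis repressor with a CARD domain, was at 3.57, 3.68 and 3.37 RPKM in the controls and at 4.81, 5.38 and 5.34 RPKM in DM-aKG, and it rose by 0.49 ± 0.07 on the log2 scale (adjusted p from limma = 6.12e-04). After Utp20 this was the largest rise among the members. The exons of Nol3 overlap those of 4931428F04Rik on the opposite strand over 48.2% of their length, and that gene was lower, at 3.41 ± 0.473 RPKM without and 2.34 ± 0.174 RPKM with DM-aKG. Nol4l did not pass (adjusted p from limma = 0.196). Nol4 was listed between 0 and 0.02 RPKM and was not tested.

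Across the 55 members, the direction of change went with abundance. Npm1, Nop53, Ncl and Fbl, the 4 most abundant members, all had negative log2 fold changes, but Ncl was not called and the groups of Npm1 overlapped. Of the 18 most abundant members (25.2 RPKM and more), 1 was called higher and 5 lower, with a median log2 fold change of -0.08. The 19 members of middle level (13.8 to 23.3 RPKM) held 7 higher and 5 lower genes, and the 18 least abundant (up to 12.9 RPKM) held 7 higher and 1 lower, with medians of 0.01 and 0.10. Over all tested genes, whatever their level, 30.9% were higher and 24.7% lower. Spearman's rho of the log2 fold change with the mean RPKM was -0.45 over the 55 members and 0.06 over 10714 tested genes with an exon length in the annotation. With exon length rho was 0.06 over the members and 0.04 over the tested genes. Genes are not independent replicates and share their libraries, so these values describe the set and carry no p. Summed over all 56 genes, the members held 1866, 1917 and 1845 RPKM in the controls and 1849, 1720 and 1679 RPKM in DM-aKG, so that the treated sum of replicate 1 lay among the controls. Without Npm1 the sums were 1376, 1378 and 1360 RPKM in the controls and 1358, 1325 and 1317 RPKM in DM-aKG. In bulk RNA, fewer cells of a type and less RNA per cell cannot be told apart.

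**Figure D4:**
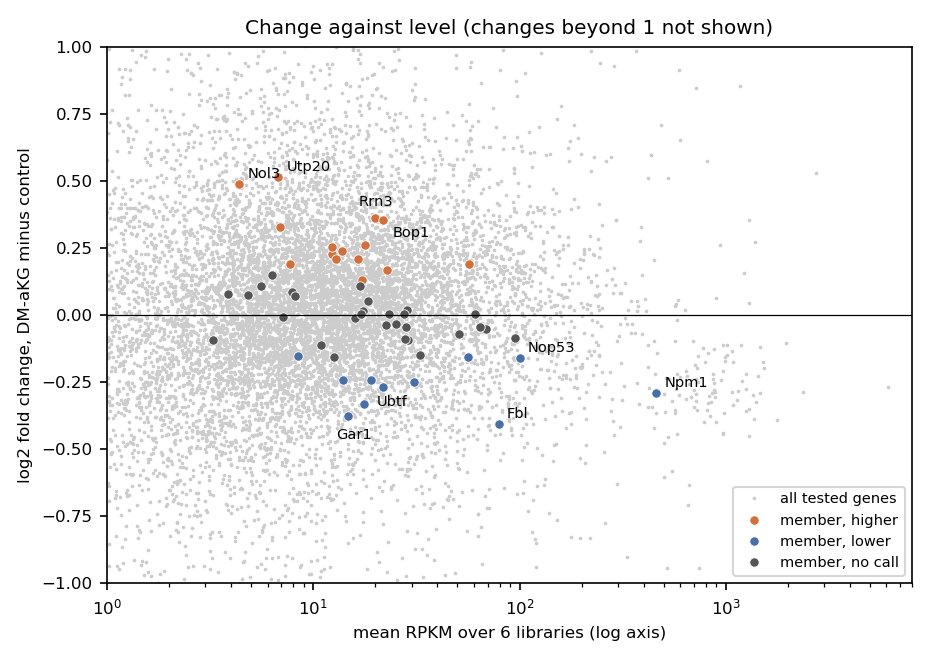
Log2 fold change (vertical axis, DM-aKG minus control) against the mean RPKM over the 6 libraries (horizontal log axis), grey for all tested genes within the plotted range and coloured for members by their call. The members called higher sit mostly below 25 RPKM, and the 4 most abundant members, Npm1, Nop53, Ncl and Fbl, lie below 0.

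The treated replicates differed in how far the members moved. Among the 11 members called lower, DM-aKG replicate 1 had the highest of the 3 treated values in 10, that is the value nearest to the controls. Among the 15 called higher, it had the lowest treated value in 9. The same held for genes at large, with replicate 1 highest in 70.4% of the lower and lowest in 60.7% of the higher genes. Spread between replicates was slightly larger after treatment. The median coefficient of variation of the tested members was 3.09% in the controls and 4.22% in DM-aKG, and it was larger in DM-aKG for 36 of the 55.

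Other genes of ribosome assembly, 114 symbols outside the member rule, showed a similar mixture. Among 110 tested genes, 34 passed as higher and 17 as lower, and the median log2 fold change was 0.00. The share called was 46.4%, against 55.6% of all tested genes. Quantile normalization gave 20 higher and 29 lower, and median centring 23 and 27, while all tested genes split into 2861 and 3190 and into 2790 and 3340 under these scalings. Among RNA polymerase I genes under older symbols, Cd3eap, a subunit gene, fell from 9.16 ± 0.193 to 6.65 ± 0.465 RPKM (adjusted p from limma = 6.34e-04), and the subunit gene Znrd1 fell from 11.1 ± 0.118 to 8.81 ± 0.924 RPKM (adjusted p from limma = 0.00687). Baz2a, part of a complex that silences ribosomal DNA, rose from 16.1 ± 0.0721 to 21.5 ± 1.02 RPKM (adjusted p from limma = 3.03e-04). Both belong with Baz2a to a list of 14 tested genes that also holds Twistnb, Ttf1 and genes with Polr2 and Taf1 symbols. In that list 4 were higher (Baz2a, Polr2e, Polr2f and Polr2l) and 2 lower (Cd3eap and Znrd1), with 42.9% called.

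Further processome genes (38 tested) held 10 higher and 5 lower, led by Tbl3, which rose from 15.1 ± 0.539 to 21.6 ± 1.52 RPKM (adjusted p from limma = 3.53e-04). Noc4l rose from 15.8 ± 0.116 to 20.2 ± 1.12 RPKM, and Rcl1 fell from 16.5 ± 0.361 to 12.7 ± 0.852 RPKM. Large subunit genes outside the rule (42 tested) held 13 higher and 7 lower. Eif6, which keeps unfinished large subunits from joining small ones, rose from 54.9 ± 1.72 to 75.6 ± 5.49 RPKM (adjusted p from limma = 5.29e-04). Gtpbp4, a GTPase, rose from 33.5 ± 0.740 to 40.0 ± 0.740 RPKM, and Mdn1, a giant ATPase that strips assembly factors, rose from 2.58 ± 0.122 to 3.48 ± 0.0902 RPKM. Of 16 exosome and trimming genes, 7 were higher and 3 lower. In these lists, in the order given, 39.5%, 47.6% and 62.5% were called, against 55.6% of all tested genes. Exosc3, a cap subunit of the RNA exosome, was at 15.5, 13.8 and 15.0 RPKM in the controls and at 9.05, 8.93 and 9.36 RPKM in DM-aKG. It fell by 0.67 ± 0.05 on the log2 scale (adjusted p from limma = 6.46e-05) and was the 1 gene among these 110 with a fold change past 1.5. The nuclease gene Dis3 and the helicase gene Skiv2l2 rose by 0.25 and 0.23 on the log2 scale.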

How the data were processed

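RPKM values for 24956 genes and 6 libraries were deposited by the authors with 2 decimals, 1 column per library; the submitters' processing notes name CASAVA 1.8, HISAT2 2.0.4, Partek and mm10, while roles, annotation and strand were not given in the sources used here. RPKM divides by library size, so an abundant gene that changes shifts the others. Genes with a mean of at least 1 RPKM were compared as log2(RPKM + 0.5), which understates changes of low genes, with limma 3.58.1 in R 4.3.3 (eBayes with trend, no block, two-sided; Benjamini-Hochberg over all tested genes, threshold 0.05), and tested on simulated data. Depth was estimated from the RPKM steps of miRNA and snoRNA genes of known length, where 91.4% to 94.4% of the other values up to 5 reads came out whole within 0.05 reads. All 56 members have 1 position in GENCODE M21 (GRCm38, the assembly of mm10); copies were sought with blastn 2.17.0. Python 3.11.15 was used. Members and lists were chosen with earlier results of these data known. Named were up to 4 members per role group with the smallest p, the 6 largest rises and falls, 14 fixed genes, calls against the group's majority, and up to 3 genes of each other list with Myc; further genes were named after their values were seen.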

Additional observations from a re-analysis of the deposited data

How the results depend on the processing

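Alternatives covered the pseudocount (0.1 and 1), the filter (none, 3 RPKM), 3 scalings, the variance model, array weights, the replicate block and left-out libraries. Over 935 values of single members under alternatives, 868 kept their side of the threshold, 33 lost and 34 gained a call, and no called member changed sign. Members called lower were 17 with array weights and 17 without control replicate 2 and DM-aKG replicate 1 together. Array weights called 61.8% of members and 71.1% of all tested genes, and leaving out both libraries 60.0% and 64.5%. Leaving out single libraries gave 8 to 16 lower and 13 to 16 higher members. Those fits called 38.2% to 58.2% of members and 43.7% to 63.3% of all tested genes. Other ribosome assembly genes called higher were 20 with quantile normalization and 22 to 36 with single libraries left out (22 without control replicate 3, 36 without DM-aKG replicate 1); those called lower were 27 with median centring, 29 with quantile normalization, 29 with array weights, 28 without both libraries and 13 to 27 with single ones left out. The cause was not tested. With the replicate block, 14 members were higher and 11 lower, and the calls of Npm1 and Nop16 were lost. No pairing by replicate number was seen: deviations of same-numbered libraries correlated at -0.08, -0.11 and 0.01 across genes. With 3 libraries per group, these values cannot show whether same-numbered samples shared an animal or a batch. In the window from 100 bases before the start, 17.8% of members held an E-box and 44.4% the ETS letters, against 8.01% and 25.7% of tested genes. Depth limits the tested members with few reads, Utp23 first (counting error 5.98%).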

Other observations

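Genes of the MYC network, which many ribosome assembly genes answer to, included called genes of both directions. Of 11 tested, 3 were higher and 6 lower, so 81.8% were called, against 55.6% of all tested genes. A fold change of 1.5 was passed by 3 (27.3%), against 12.2% of all tested genes. Max, the gene of the partner MAX, fell from 17.0 ± 0.786 to 14.5 ± 0.805 RPKM (adjusted p from limma = 0.0111), and Mlxip was also called lower. Myc itself was at 57.2, 42.4 and 52.8 RPKM in the controls and at 53.3, 51.7 and 54.3 RPKM in DM-aKG, with overlapping groups (adjusted p from limma = 0.550). Mycl, a relative of Myc, fell from 14.4 ± 0.836 to 6.04 ± 1.29 RPKM (adjusted p from limma = 1.96e-04). Mycn, below the filter, was at 1.06, 0.88 and 0.96 RPKM in the controls and at 0.46, 0.35 and 0.46 RPKM in DM-aKG. Mxd1, whose product competes with MYC for the partner MAX, rose from 6.63 ± 1.06 to 12.9 ± 2.27 RPKM (adjusted p from limma = 0.00135). Other genes of MAX-binding competitors fell: Mxd4 from 8.10 ± 0.315 to 4.46 ± 1.36 RPKM, Mxd3 from 2.36 ± 0.354 to 1.60 ± 0.216 RPKM and Mnt from 8.38 ± 0.0611 to 6.98 ± 0.308 RPKM (adjusted p from limma = 0.00368, 0.0140 and 0.00379). Mxi1, of the same family, was called higher with overlapping groups (adjusted p from limma = 0.0270). Mlx, a MAX-like factor, rose from 23.7 ± 0.750 to 31.4 ± 2.35 RPKM (adjusted p from limma = 0.00112).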
